A study of Homo sapiens with 33 samples.

Results

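The response of TLE1 knockout Nalm6 cells to dexamethasone was described in 12 of the 33 libraries of the series, in 4 groups of 3. Nalm6 is an established human B-cell precursor acute lymphoblastic leukaemia line, and the knockout is labelled as Nalm6 edited with CRISPR/Cas9. The number of edited clones was not given in the sources used here. The groups were knockout cells given 100 nM dexamethasone for 24 h, untreated knockout cells, and 2 sets of untreated parental cells. The untreated knockout and one parental set are described in the series text and are called the first set here, while the other parental set carries dexamethasone in its title and is called the dexamethasone set. All cells were grown in RPMI-1640 with charcoal-stripped serum, which is low in steroid. No untreated knockout group with the dexamethasone title was analysed here. The libraries were therefore chosen by title for one contrast, the knockout treated minus untreated difference, less the difference of the dexamethasone parental set from the first parental set. The result is called the set-corrected response here. It removes from the knockout comparison whatever the parental line showed between the sets, on the assumption that the knockout cells carry the same set difference. That assumption could not be tested, and the labels do not say that the treated knockout libraries were handled with the dexamethasone parental set.

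Dexamethasone is a synthetic glucocorticoid. It enters the cell, binds the glucocorticoid receptor, which is held ready by heat shock proteins, and the receptor then moves to the nucleus, where it raises some genes and lowers others. In precursor B leukaemia the drug class stops growth and can trigger death through the BCL2 family, and it is a mainstay of treatment. TLE1 is a co-repressor without DNA-binding of its own that works with TCF/LEF factors of the Wnt pathway, among others.

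The edited gene was checked first. TLE1 (ENSG00000196781.16_1) was read at 30.2, 34.0 and 31.8 counts per 1000000 gene counts (CPM) in the first parental set, 26.0, 27.2 and 27.9 in the dexamethasone parental set, 25.4, 24.0 and 24.0 in the untreated knockout and 57.5, 55.3 and 59.0 in the treated knockout. The transcript was thus present in every knockout library, and the gene count does not by itself identify the edited cells. Libraries held between 25292579 and 61930057 gene counts, and the treated knockout was the shallowest group. Reads outside genes took 19.2% to 28.3% of a library, with 22.4% to 24.6% in the treated knockout, 23.9% to 27.5% in the untreated knockout, 19.2% to 19.7% in the dexamethasone parental set and 26.4% to 28.3% in the first parental set. Their part in the results was not tested. All 23 B-cell precursor genes matched were above 1 CPM on average in each of the 4 groups, and 9 of the 11 T-cell markers matched were under 0.1 CPM on average in both knockout groups. LCK, which B-lineage leukaemia cells also express, was the one T-cell marker with a mean above 1 CPM in the knockout groups. In the dexamethasone parental set 8 of the 11 were under 0.1 CPM on average, but every marker had reads. There TRBC2 averaged 0.21, CD3G 0.073 and CD3E 0.059 CPM, and these had no read in the other groups. The source of these reads was not tested. Untreated knockout replicate 3 stood furthest from its group, with a chi-square per degree of freedom of 26.1 and 29.3 against the other replicates, and was left out in a separate fit. Replicate 1 of the dexamethasone parental set differed from its partners by 9.73 and 16.7 on the same measure. The series text names independent experiments for the first set, and nothing says whether the replicates of the dexamethasone libraries came from separate cultures, so p-values measure the spread between these libraries, which may be technical.

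Of 17375 genes tested with edgeR's quasi-likelihood test, 6952 were called in the set-corrected response at an adjusted p under 0.05, of which 3215 rose and 3737 fell. The called share was 40.0% of genes in all, 18.5% higher and 21.5% lower, which is the background for the set-corrected counts of every gene group that follows. For counts with the set difference kept it was 26.5% higher and 28.4% lower, and for counts between the parental sets 23.1% higher and 22.1% lower. Counting only changes of 1 or more on the log2 scale, 818 genes rose and 467 fell. With the set difference left in, 9531 genes were called, 54.9% of those tested, and the difference of the parental sets alone called 7844, or 45.1%. The removal also subtracts 6 more libraries and widens the error, from a median standard error of 0.09 to one of 0.13 on the log2 scale. Among the calls, 5462 were shared by both versions of the comparison, 5262 with the same sign and 200 with the opposite sign. A further 4069 calls, 42.7% of those made with the set difference kept, were not called after removal, and 2538 of them were called between the parental sets. In the other direction 1490 genes, 21.4% of the set-corrected calls, were called after removal only, and 1336 of these were called between the parental sets. Of the 9531 calls made with the set difference kept, 1275 had the opposite sign after removal, whether or not they were called there.

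**Figure D1:**
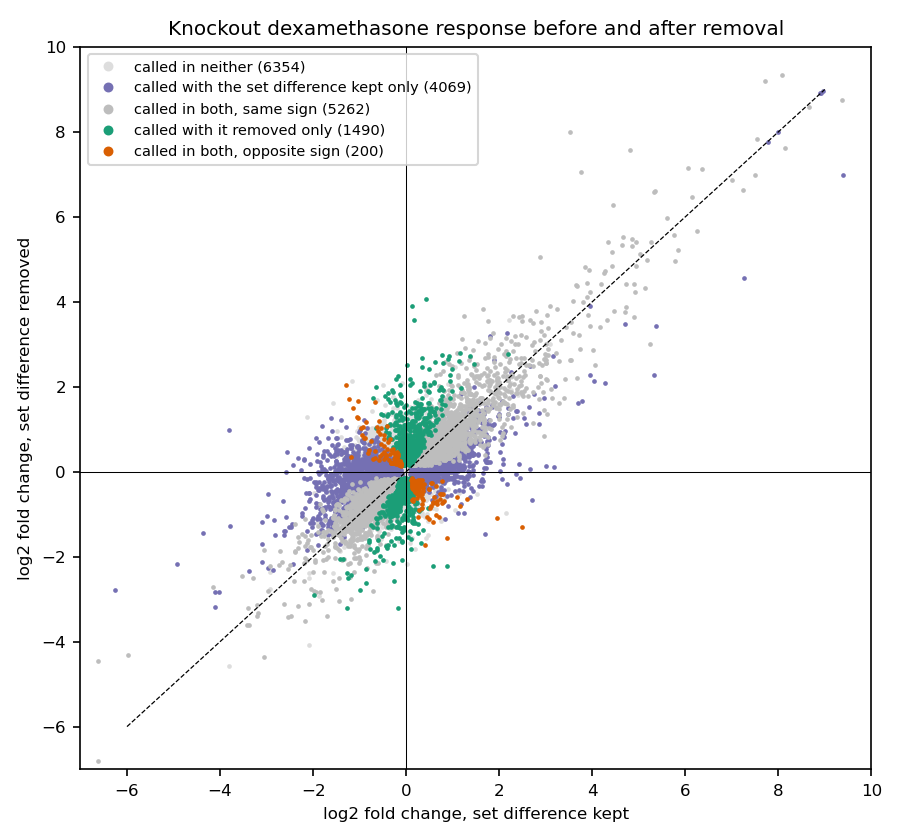
Log2 fold change of each of 17375 genes in knockout cells under dexamethasone against untreated knockout cells, with the difference of the untreated parental sets kept (horizontal axis) and removed (vertical axis). Points off the dashed line of equal values are moved by the removal, and colours give the calls at an adjusted p under 0.05, with 200 genes called in opposite directions.

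Removal changed the direction of JCHAIN and S1PR1 and deepened the fall of CD22. JCHAIN, the joining chain of secreted antibodies, was at 10.7, 11.7 and 12.7 CPM in the treated knockout and 1.74, 1.74 and 2.79 in the untreated knockout, a log2 difference of 2.49 ± 0.19 with the set difference kept (the kept-in difference). In the parental line without any drug it was at 10.6, 8.03 and 7.78 CPM in the dexamethasone set and 0.872, 0.530 and 0.557 in the first set. The parental gap was the larger one, so the set-corrected value of JCHAIN was -1.31 ± 0.30 (edgeR adjusted p = 0.0025). S1PR1, the sphingosine-1-phosphate receptor that guides lymphocytes out of tissue, behaved alike, at 8.39, 8.82 and 8.95 CPM in the treated and 5.87, 5.90 and 5.88 in the untreated knockout. Its parental sets read 4.45, 4.03 and 5.13 and 1.53, 1.51 and 1.13 CPM, and its value went from 0.58 ± 0.11 with the set difference kept to -1.19 ± 0.16 with it removed. CD22, an inhibitory co-receptor of the B-cell receptor, was at 41.5, 40.0 and 36.4 CPM against 54.9, 52.3 and 49.0 in the knockout and 110.6, 122.5 and 123.3 against 63.7, 57.1 and 57.3 in the parental sets. The 3 treated knockout libraries were the lowest of the 12 for CD22, and its set-corrected value was -1.46 ± 0.09 where the kept-in value was -0.40 ± 0.06. For JCHAIN and S1PR1 the treated knockout held the highest levels of the 4 groups, so the fall in either gene exists only relative to the parental set difference.

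**Figure D2:**
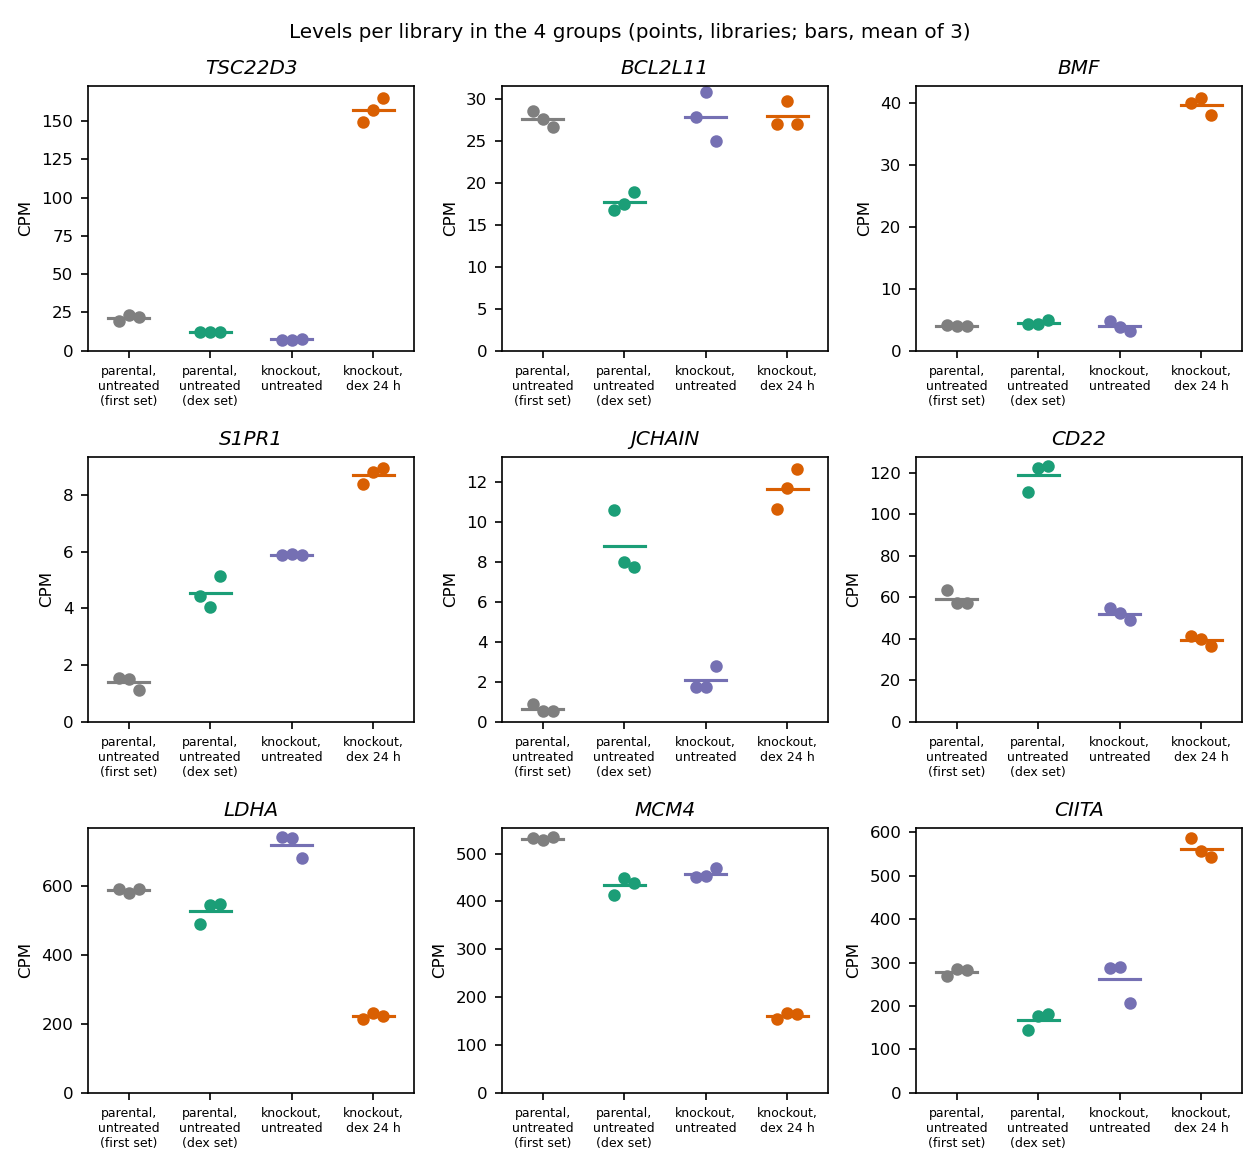
CPM of 9 genes in each library of the 4 groups, points for libraries and bars for the mean of 3. TSC22D3, BMF and CIITA were highest and LDHA and MCM4 lowest in the treated knockout whichever untreated group is taken. BCL2L11, S1PR1, JCHAIN and CD22 differed between the untreated parental sets by up to 3.79 on the log2 scale. TSC22D3, CIITA, LDHA and MCM4 also differed there, with lower levels in the dexamethasone set than in the first.

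Other genes were called on one side of the removal only. SPP1, which encodes the secreted matrix protein osteopontin, hardly differed within the knockout, at 12.5, 13.3 and 13.2 CPM treated and 12.7, 13.6 and 15.6 untreated. In the parental sets it was at 40.6, 39.0 and 36.6 and 11.01, 9.71 and 9.67 CPM, and the set-corrected value was -2.09 ± 0.11 (edgeR adjusted p = 1.8e-09). PI16, a secreted peptidase inhibitor, and HIC1, a transcriptional repressor, were also called only after removal, at -3.22 and -1.58. In the opposite case SPTLC3, a subunit of the enzyme that starts sphingolipid synthesis, was at 7.98, 8.34 and 7.72 CPM treated and 1.22, 0.948 and 1.64 untreated, and at 5.37, 6.21 and 6.48 and 1.10, 1.16 and 0.836 in the parental sets. Its kept-in difference of 2.67 ± 0.16 came to 0.07 ± 0.23 after removal (edgeR adjusted p = 0.84). CCDC88B went from 2.17 to -0.28, APELA from 2.06 to -0.17 and GP5 from -2.55 to 0.46, none of them called after removal.

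Genes that glucocorticoids commonly raise rose in the knockout cells with the set difference removed. Of the 17 genes of the glucocorticoid response list 16 passed the filter on low counts, PFKFB2 being the exception, and those 16 were called higher, with a median log2 fold change of 1.41, beside 18.5% called higher and a median of 0.00 over all genes. With the set difference kept 15 of the 16 were called higher, beside 26.5% of all genes, and BCL2L11 was not called. SLA and ZBTB16 were so low in every untreated group that they passed the filter on their treated libraries, so their direction was given by the filter. TSC22D3 (ENSG00000157514.17_1), which encodes the glucocorticoid-induced leucine zipper, was at 149.8, 157.4 and 165.1 CPM treated against 7.26, 7.03 and 7.87 untreated, and at 12.2, 12.2 and 12.5 and 19.6, 23.4 and 21.9 in the dexamethasone and first parental sets. The treated libraries did not overlap any untreated one, and the set-corrected rise was 5.17 ± 0.10 (edgeR adjusted p = 1.9e-14). FKBP5 (ENSG00000096060.15_1), a receptor co-chaperone that dampens the receptor's own activity, was at 234, 239.7 and 234.3 CPM treated, 125, 140.1 and 108.9 untreated, 68.3, 90.2 and 91.8 in the dexamethasone parental set and 114.2, 114.2 and 110.6 in the first. The treated group was again above every untreated library, and FKBP5 rose by 1.31 ± 0.13. NR3C1, the receptor itself, was at 315.7, 318.9 and 318.8 CPM treated and 143.3, 154.9 and 162.9 untreated and rose by 1.14 ± 0.08, with 232.5, 216.3 and 207.3 and 242.8, 239.7 and 240.9 CPM in the parental sets. PER1, a clock repressor with receptor sites, rose by 0.62 ± 0.15 and KLF9, a zinc finger factor, by 1.19 ± 0.15. ZBTB16, a zinc finger repressor, was at 9.69, 9.02 and 9.87 CPM treated and at 0.0348, 0.0306 and 0.0321 untreated, too few untreated reads for a fold change to be given.

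The receptor's chaperone machinery went the other way in part. Of 18 members of the receptor complex list 4 rose and 8 fell, with a median of -0.12. STIP1, which links the chaperones HSP70 and HSP90, fell by 0.61 ± 0.06, from 254.7, 249.6 and 257.9 to 157.4, 159.6 and 164.8 CPM in the knockout. HSP90AA1, the inducible HSP90, was called lower at -0.65 ± 0.18, and its kept-in value was -1.26. TLE1 itself rose by 1.42 ± 0.08, and LEF1, a factor that recruits TLE proteins, fell by 0.41 ± 0.07.

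The largest rises included a receptor and several enzymes. P2RY14, a receptor for UDP-sugars, was at 24.7, 25.8 and 23.9 CPM treated and 0.799, 0.948 and 0.899 untreated, with 0.0660, 0.215 and 0.202 and 1.15, 1.04 and 1.10 in the parental sets. The parental sets differed by -2.77 for this gene, so the set-corrected rise of 7.58 ± 0.26 is larger than the kept-in 4.81 ± 0.12, and it rests in part on very low counts in the dexamethasone parental set. DPEP1, a membrane dipeptidase, was at 118.7, 112.8 and 118.9 CPM treated and 5.56, 4.07 and 4.27 untreated and rose by 5.53 ± 0.12. ISG20, an RNA exonuclease, rose by 4.43 ± 0.09, SMIM3, a small membrane protein, by 3.70 ± 0.09, RASSF4, a Ras-association protein, by 3.76 ± 0.12 and CSGALNACT1, an enzyme of chondroitin sulphate synthesis, by 3.65 ± 0.13. BNIP3P41 and LINC01226, a pseudogene and a non-coding RNA, were also among the 12 largest. BNIP3P41 passed the filter on low counts on its treated libraries, so its direction was given by the filter, and its reads cannot be separated with certainty from near-identical copies.

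The PI3K and mTOR brake genes were split, with more members called higher than lower, as were the KLF factors. TP53INP1, a p53-induced protein of cell death and autophagy, was at 745.8, 717.7 and 746.5 CPM treated, 19.9, 21.4 and 21.6 untreated, and 18.3, 17.6 and 17.4 and 11.04, 10.6 and 10.1 in the parental sets, a rise of 4.34 ± 0.07 (edgeR adjusted p = 3.7e-15). PIK3IP1, an inhibitor of the PI3K catalytic subunit, was at 48.7, 48.8 and 52.2 CPM treated and 0.938, 0.948 and 0.867 untreated and rose by 4.96 ± 0.20. Of 16 PI3K and mTOR brake genes tested 8 rose and 3 fell, with a median of 0.26. DEPTOR, a direct mTOR inhibitor, rose by 0.91 ± 0.19 and DDIT4, which restrains mTOR complex 1, by 0.57 ± 0.07. EIF4EBP1, the translation inhibitor that mTOR phosphorylates, was a member that fell, by 0.97 ± 0.08. Of 12 KLF genes 7 rose and 4 fell. KLF2, a quiescence factor of lymphocytes, was at 7.54, 7.35 and 9.18 CPM treated and 0.382, 0.275 and 0.161 untreated and rose by 4.42 ± 0.34, and KLF13 rose by 1.25 ± 0.06. In the IL7 receptor and JAK-STAT list of 13 genes 6 rose and 2 fell. SOCS1 and SOCS2, feedback inhibitors of cytokine receptors, rose by 2.99 ± 0.35 and 1.60 ± 0.06, while IL2RG, the shared cytokine receptor chain, fell by 0.87 ± 0.18. Of 9 arrestin and thioredoxin genes 2 rose and 3 fell. TXNIP, which lowers glucose uptake, was at 312, 315.4 and 323.1 CPM treated and 72.8, 63.2 and 72.4 untreated and rose by 2.22 ± 0.09. NFKBIA, the inhibitor of NF-kB, rose by 0.96 ± 0.09 and DUSP10, a phosphatase of stress kinases, by 1.99 ± 0.15. Of the 12 NF-kB genes 4 rose and 3 fell, and of 8 MAPK phosphatases 3 rose and 3 fell.

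Among the genes that decide cell survival, the BH3-only genes BMF and BCL2L11 rose and BCL2 fell. BMF, whose product binds and blocks BCL2 proteins, was at 40.0, 40.8 and 38.1 CPM in the treated knockout and 4.79, 3.88 and 3.21 in the untreated knockout, and at 4.27, 4.37 and 4.96 and 4.20, 3.94 and 3.94 in the parental sets. None of the 9 untreated libraries approached the treated ones, and BMF rose by 3.11 ± 0.15 (edgeR adjusted p = 3.2e-10). BCL2L11 (ENSG00000153094.24_1), which encodes BIM, the glucocorticoid death effector best known in lymphoid cells, was at 27.1, 29.7 and 27.1 CPM treated and 27.9, 30.9 and 24.98 untreated. The knockout groups overlapped, and the kept-in difference was 0.01 ± 0.07 (edgeR adjusted p = 0.92). In the parental sets BCL2L11 was at 16.8, 17.5 and 18.9 CPM in the dexamethasone set and 28.5, 27.6 and 26.7 in the first, a difference of -0.58 ± 0.07. The whole set-corrected rise of 0.59 ± 0.10 (edgeR adjusted p = 2.4e-04) thus comes from the parental term. BCL2, the anti-apoptotic protein, was at 86.6, 88.0 and 85.3 CPM treated and 171, 177.9 and 183.7 untreated, with 182.6, 187.1 and 175.1 and 199.3, 192.6 and 185.6 in the parental sets. It fell by 1.001 ± 0.06, and its kept-in value was -1.03. Of 10 pro-apoptotic BCL2 family genes 5 rose and 3 fell. BBC3 and BIK, 2 more BH3-only genes, rose by 0.83 ± 0.14 and 0.81 ± 0.13, and BID fell, at -0.70 ± 0.08. MCL1, another survival protein, rose by 0.30 ± 0.06, so that of 4 anti-apoptotic genes tested 1 rose and 1 fell.

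Genes of the cell division cycle fell, most of all those of DNA replication. Of 34 replication genes 33 fell and 1 rose, with a median of -0.84, beside 21.5% called lower over all genes. The kept-in median was -0.83 and the parental set difference -0.06, so the removal hardly moved this list. MCM4, a subunit of the replicative helicase, was at 154, 166.1 and 164 CPM treated, 450.9, 452.2 and 469 untreated, and 412.6, 449.1 and 438.7 and 531.6, 528.1 and 534.3 in the parental sets. All 3 treated libraries were below all 9 untreated ones, and MCM4 fell by 1.26 ± 0.06 (edgeR adjusted p = 7.4e-10). CDC6, which loads the helicase, fell by 1.29 ± 0.08 and RRM2, a subunit of ribonucleotide reductase, fell by 1.15 ± 0.06. GINS2, a part of the active helicase, was at 32.1, 36.6 and 34.4 CPM treated and 89.5, 84.2 and 89.3 untreated and fell by 1.18 ± 0.07. Replication genes are classical targets of E2F factors, and the E2F motif TTTCCCGC, searched on both strands from 250 bases before to 50 bases after the start, was in 30.0% of the 30 replication promoters found in RefSeq. It was in 2.59% of the promoters of all genes tested with a RefSeq entry and in 1.66% of all RefSeq promoters in the table. The GINS2 promoter is shown as an example from RefSeq (GRCh38.p14, chr16:85688905-85689204, minus strand, 5′ to 3′), with the match in capitals, where the motif reads on the opposite strand.
GINS2: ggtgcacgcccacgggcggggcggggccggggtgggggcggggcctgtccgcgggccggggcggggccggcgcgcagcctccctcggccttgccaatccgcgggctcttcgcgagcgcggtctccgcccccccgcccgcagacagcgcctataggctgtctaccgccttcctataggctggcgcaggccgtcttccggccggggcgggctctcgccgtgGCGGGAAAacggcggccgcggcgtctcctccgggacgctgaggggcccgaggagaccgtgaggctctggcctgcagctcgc
A match is a description of these letters, and binding was not measured.

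Mitotic genes fell less, and here the removal mattered. Of 23 mitosis genes 18 fell and 0 rose with the set difference removed (median -0.36), against 10 called lower and 4 called higher with it kept (median -0.12). In the parental sets 17 of the 23 were called higher in the dexamethasone set, with no drug. CDC20, an activator of the anaphase-promoting complex, was at 69.3, 71.0 and 73.5 CPM treated and 92.8, 91.0 and 90.9 untreated, with 132.7, 142.1 and 148.5 and 108, 105.7 and 109 in the parental sets, and fell by 0.80 ± 0.07. AURKB, a mitotic kinase, fell by 0.73 ± 0.09, where the kept-in value was -0.20. Of 20 replication-dependent histone genes 19 fell, with a median of -0.75. H2AC13, one of the histone H2A genes, fell by 0.94 ± 0.06. Histone reads are sensitive to how a library selects RNA, since these transcripts lack a poly(A) tail, and their summed level was 9721 to 10670 CPM in the treated knockout, 13390 to 14310 in the untreated knockout, 13620 to 13960 in the dexamethasone parental set and 11450 to 12460 in the first. The part of library preparation in these values was not tested. Of 12 cyclins, kinases and their inhibitors 8 fell and 3 rose. CCNE1, the G1/S cyclin E1, fell by 1.08 ± 0.11. CDKN1A, which encodes the cell cycle inhibitor p21, also fell: it was at 55.2, 53.4 and 55.4 CPM treated and 123.7, 123.3 and 124.8 untreated, a change of -1.61 ± 0.06.

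MYC and nucleolar genes fell while ribosomal protein genes did not move as a list. MYC was at 588.2, 593.7 and 609 CPM treated, 772.8, 770.9 and 737.6 untreated, and 783.6, 879.8 and 908.9 and 721.5, 741 and 751.8 in the parental sets, and fell by 0.61 ± 0.07 (edgeR adjusted p = 4.5e-06). MXD4 and MXD1, antagonists that compete with MYC for its partner MAX, rose by 1.57 ± 0.10 and 0.86 ± 0.15. Of 11 genes of the MYC network 5 rose and 3 fell. Of 23 ribosome biogenesis genes 20 fell and none rose, with a median of -0.43. RRP9, a processing factor of ribosomal RNA, fell by 0.74 ± 0.07, RRP12, another, fell by 0.73 ± 0.06 and NOP16, a nucleolar protein, fell by 0.68 ± 0.08. The E-box CACGTG, the same on both strands and the site MYC and related factors bind, was in 36.8% of 19 promoters of this list and in 10.1% of those of all genes tested. A high share was not particular to lists that fell. It was 28.6% of 21 promoters in the lysosome and autophagy list, where more members rose than fell, and 0 of 18 in the B-cell precursor list. Of 45 large-subunit ribosomal protein genes 5 were called higher and 3 lower, with a median of 0.01. With the set difference kept 37 were called higher and none lower (median 0.25), and 34 were called higher in the untreated dexamethasone parental set than in the first. For the 31 small-subunit genes the higher calls went from 25 to 3 on removal. The kept-in rise of ribosomal protein transcripts was thus about as large as the set difference. RPS3 was a member that rose, by 0.28 ± 0.05. These counts rest on single libraries. Without untreated knockout replicate 3 the higher calls numbered 10 in the large and 15 in the small subunit, and without replicate 1 of the dexamethasone parental set 9 and 12. The higher calls in the large subunit numbered 1 without treated knockout replicate 3, 2 without replicate 2 or 3 of the dexamethasone parental set or replicate 3 of the first, and 3 without treated knockout replicate 2 or untreated knockout replicate 1 or 2. Without treated knockout replicate 1 those in the small subunit numbered 6, and the lower calls in the large subunit fell to 1, as they did without any 1 library of the first parental set. Ribosomal protein genes have many processed copies, and their counts are uncertain to that extent.

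**Figure D3:**
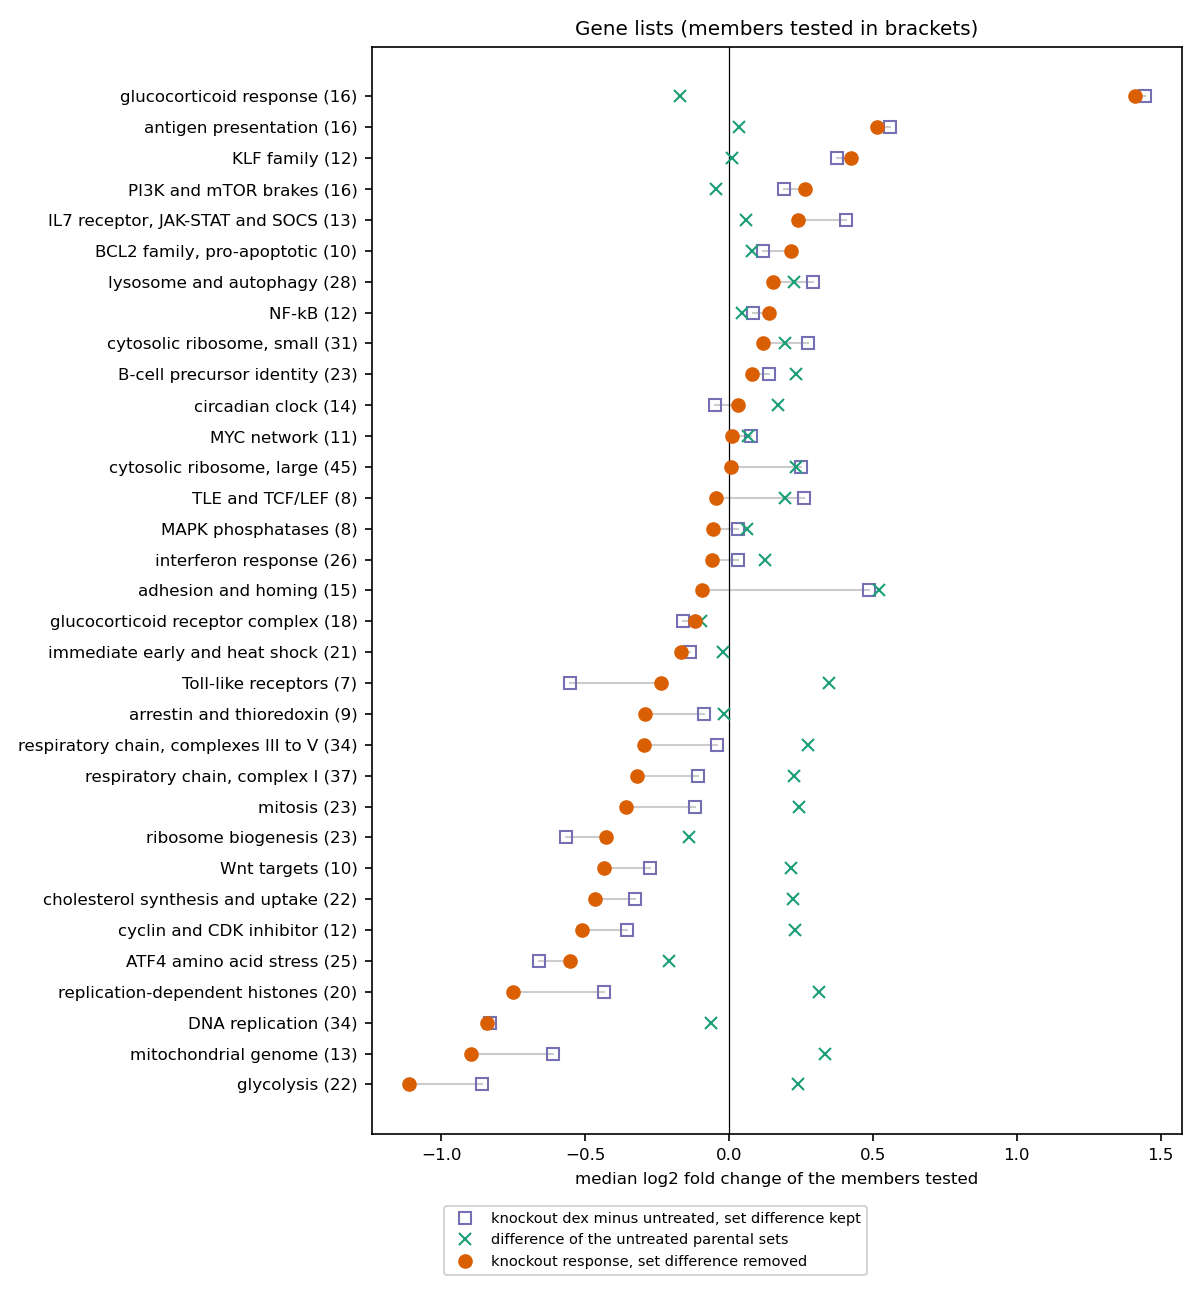
Median log2 fold change of the tested members of gene lists of at least 7 tested genes, with the parental set difference kept (squares), for the set difference alone (crosses) and with it removed (circles). The list of plasma cell and mature B markers, with 9 tested genes, is left out. Removal subtracts the set difference from each gene, so glycolysis moves from -0.86 to -1.11 and the large ribosomal subunit from 0.25 to 0.01.

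Glycolysis held the lowest median of the lists in the plot. Of 22 glycolysis genes 20 fell and none rose, with a median of -1.11, against -0.86 with the set difference kept. LDHA, which turns pyruvate into lactate, was at 213.3, 232.1 and 220.8 CPM treated, 740.2, 737.3 and 678.5 untreated, and 489.2, 542.8 and 546.3 and 590.3, 578.4 and 589 in the parental sets. The treated libraries were far below all 9 untreated ones, and LDHA fell by 1.59 ± 0.07 (edgeR adjusted p = 2.6e-10). ENO1, the enzyme enolase, was at 769.5, 790.9 and 802.3 CPM treated and 2037, 1888 and 2069 untreated and fell by 1.47 ± 0.06. PFKFB4, which sets the level of a glycolysis activator, was at 6.12, 6.25 and 6.66 CPM treated and 32.0, 25.7 and 23.7 untreated and fell by 3.10 ± 0.20, with 20.5, 16.2 and 19.8 and 8.75, 8.35 and 12 in the parental sets. Other large falls were those of MIR210HG and BNIP3, and of ALDOC from the same list. MIR210HG, the host transcript of a hypoxia microRNA, fell by 3.12 ± 0.20, BNIP3, a mitophagy receptor, fell by 2.13 ± 0.10 and ALDOC, an aldolase, fell by 1.75 ± 0.07. BNIP3 was at 147.9, 136.5 and 140.3 CPM in the untreated knockout, above both parental sets at 83.1, 71.3 and 75.9 and 65.1, 70.5 and 78.0, and at 37.2, 36.3 and 34.9 in the treated knockout.

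Most nuclear genes of the respiratory chain on these lists fell with the set difference removed. Of 37 complex I subunits 25 fell and 1 rose (median -0.32), and of 34 subunits of complexes III to V 24 fell and none rose (median -0.30). With the set difference kept, 14 and 10 were called lower, and the parental sets alone differed by a median of 0.23 and 0.27. COX6B1, a subunit of cytochrome oxidase, showed how: it was at 104.6, 107.3 and 110.9 CPM treated and 113.2, 108.8 and 115.6 untreated, overlapping, and at 153.7, 148.8 and 139.3 and 103.5, 103.6 and 99.4 in the parental sets, for a value of -0.64 ± 0.07. ATP5MC1, which encodes a ring subunit of ATP synthase, differed little between the parental sets (0.02) and fell within the knockout, with a set-corrected change of -1.03 ± 0.08. NDUFA6, a complex I subunit, was at 28.8, 29.9 and 35.5 CPM treated and 44.9, 42.9 and 51.0 untreated and fell by 0.84 ± 0.11. Of the 13 protein-coding genes of the mitochondrial genome 9 were called lower and 1 higher, with a median of -0.90. These calls rest on uneven libraries. Every knockout library difference lay below every parental one for 1 of the 13, beside 16.9% of all genes. Summed, the 13 were at 7628 to 8254 CPM in the treated and 5433 to 7888 in the untreated knockout. The sums were 7476 to 9901 CPM in the dexamethasone parental set and 6009 to 6239 in the first. MT-CYB was at 165.6, 125.9 and 141.9 CPM treated, 142.6, 166.3 and 91.9 untreated, and 184.1, 281.3 and 285.7 and 100.2, 109.4 and 104.7 in the parental sets, and the number of lower calls ran from 5 with robust moderation to 12 over the alternatives.

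Genes of cholesterol synthesis and of amino acid supply fell in most members. Of 22 cholesterol genes 16 fell and 2 rose, with a median of -0.46. HMGCS1, an early enzyme of the pathway, was at 148, 147.8 and 154 CPM treated, 310.2, 319.2 and 334.1 untreated, and 298, 295.3 and 284.4 and 274, 266.2 and 264.3 in the parental sets, and fell by 1.27 ± 0.06. DHCR7, the last step to cholesterol, fell by 1.41 ± 0.07 and EBP, a sterol isomerase, fell by 0.90 ± 0.07. LSS, lanosterol synthase, went against its pathway: it was at 588.7, 560 and 561.8 CPM treated and 271.2, 251.8 and 235.8 untreated, with 185.9, 200.6 and 201.3 and 189.1, 188.9 and 190 in the parental sets, and rose by 1.07 ± 0.07 (edgeR adjusted p = 1.2e-08). Of 25 genes of the ATF4 amino acid stress programme 18 fell and 1 rose, with a median of -0.55. ATF5, a factor made in the same programme, was at 49.1, 47.6 and 48.7 CPM treated and 181.3, 185.4 and 135.5 untreated and fell by 1.88 ± 0.14. SLC7A5, which imports large amino acids, fell by 1.08 ± 0.11 and STC2, a secreted glycoprotein, fell by 1.30 ± 0.07. CHAC1, which degrades glutathione, was at 4.79, 3.88 and 3.72 CPM treated, 15.5, 13.9 and 13.3 untreated, and 17.3, 19.1 and 19.2 and 24.2, 24.7 and 25.2 in the parental sets, and fell by 1.41 ± 0.12. The composite element TGATGNAAN, searched on both strands of the same window, was in 23.8% of the 21 promoters of this list that RefSeq gave, in 1.74% of those of all genes tested and in 3.67% of all promoters in the table. The CHAC1 promoter is shown because its match lies in the list's most lowered gene but one (RefSeq, GRCh38.p14, chr15:40953221-40953520, plus strand, 5′ to 3′), with the match in capitals, read on the opposite strand.
CHAC1: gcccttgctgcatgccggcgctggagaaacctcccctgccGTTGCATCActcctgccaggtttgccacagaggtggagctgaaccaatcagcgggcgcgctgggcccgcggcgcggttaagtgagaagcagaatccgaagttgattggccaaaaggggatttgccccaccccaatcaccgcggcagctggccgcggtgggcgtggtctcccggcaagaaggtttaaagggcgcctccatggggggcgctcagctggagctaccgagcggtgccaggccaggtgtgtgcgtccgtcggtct
The window ends 50 bases after the transcript start.

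Most genes of the antigen presentation list, which holds class I and class II genes, rose. Of 16 antigen presentation genes 10 rose and 2 fell, with a median of 0.52. With the set difference kept 10 were called higher and none lower. The lower calls after removal numbered 1 in 8 of the 20 alternatives. CIITA, the master activator of class II genes, was at 587.8, 557 and 543.2 CPM treated, 288.5, 290.3 and 207.7 untreated, and 144.8, 176.3 and 182.1 and 268.9, 284.7 and 282 in the parental sets, and rose by 1.78 ± 0.14 (edgeR adjusted p = 1.3e-07). HLA-DMB, a chain of the peptide exchange factor HLA-DM, was at 72.2, 71.6 and 69.5 CPM treated and 24.99, 20.7 and 23.3 untreated and rose by 2.02 ± 0.08. Its partner HLA-DMA rose by 1.34 ± 0.07 and HLA-DRA, the class II alpha chain, by 0.97 ± 0.07. The interferon list did not move one way: of 26 genes 9 rose and 7 fell. ISG20 rose, as above, whereas OAS3, an antiviral enzyme, fell by 1.35 ± 0.12.

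Genes of B-cell identity and trafficking were split. Of 23 B-cell precursor genes 10 rose and 8 fell. BLK, a kinase of the B-cell receptor, was at 136.4, 136 and 139.6 CPM treated and 71.9, 66.6 and 60.4 untreated and rose by 1.38 ± 0.08. POU2AF1, a B-cell co-activator, was called lower at -1.14 ± 0.10 although its knockout groups differed by 0.14, since the parental sets differed by 1.28. IKZF3, the factor Aiolos, was at 15.4, 13.5 and 13.9 CPM treated and 20.4, 21.1 and 18.6 untreated, against 3.28, 3.08 and 3.72 and 2.76, 2.27 and 3.03 in the parental sets, and fell by 0.86 ± 0.15 from a knockout level several times the parental one. Of 15 adhesion and homing genes 5 rose and 5 fell, where 9 were called higher with the set difference kept and 11 differed upward between the parental sets. CD69, which holds lymphocytes in tissue by removing S1PR1 from the surface, was at 26.7, 26.0 and 27.3 CPM treated and 3.65, 3.40 and 3.92 untreated and rose by 2.26 ± 0.12. ICAM1, an adhesion ligand, rose by 1.07 ± 0.09. BCL6, a repressor of B-cell differentiation, was at 4.16, 3.72 and 4.30 CPM treated and 12.6, 11.5 and 12.2 untreated, with 28.8, 27.8 and 29.9 and 16.8, 13.1 and 14.9 in the parental sets, and fell by 2.56 ± 0.13. CD34, a marker of immature blood cells, was at 1.56, 1.38 and 1.502 CPM treated and 5.98, 6.05 and 6.52 untreated and fell by 2.75 ± 0.13. CNTN2, an adhesion molecule of the immunoglobulin family, fell by 2.20 ± 0.10. PRDM1, the plasma cell factor BLIMP1, rose by 1.92 ± 0.24 from a low level. Of 9 plasma cell and mature B genes tested 4 rose and 3 fell, where the filter on low counts gave TNFRSF17 its direction. MS4A1, which fell, averaged 0.26 CPM treated and 0.14 untreated, and 1.99 and 0.23 in the dexamethasone and first parental sets. It passed the filter on the dexamethasone parental set, so its direction was given by the filter too. Of 16 Wnt target genes 10 were tested, of which 5 fell and none rose. LGR5, a receptor for R-spondins, fell by 0.46 ± 0.06 and ZNRF3, a ligase that removes Wnt receptors, fell by 0.88 ± 0.11. The median of this list was -0.43, and it was -0.01 in the unstranded count column.

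Lysosome, clock and stress lists moved in both directions. Of 28 lysosome and autophagy genes 11 rose and 4 fell, where 21 and 2 were called with the set difference kept. CTSB, a lysosomal protease, rose by 0.79 ± 0.09. Of 14 clock genes 4 rose and 5 fell. BHLHE40, a repressor of the clock, was called lower at -1.30 ± 0.22, and its kept-in value was -0.17. Of 21 immediate early and heat shock genes, which respond to the handling of cells, 2 rose and 9 fell. EGR1, an early response factor, fell by 2.35 ± 0.42 at levels of 0.186, 0.553 and 0.854 CPM treated, 1.11, 1.25 and 1.19 untreated, and 3.24, 5.51 and 4.75 and 1.84, 2.20 and 1.90 in the parental sets. The treated knockout was below all other groups at these low levels, and the part of handling was not tested.

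Whether the knockout response differed from the parental one was tested directly in a fit of 21 libraries. The parental dexamethasone response uses 3 treated libraries of the parental line, and in the difference of both responses the dexamethasone parental set cancels. What is left is treated minus untreated knockout, less treated parental minus the first parental set. Whether the treated knockout libraries belong with the dexamethasone parental set is not given in the labels. Of 18463 genes 5383 were called, 29.2%, with 14.1% higher and 15.1% lower in the knockout. The parental response itself, which shares the dexamethasone parental set with the set-corrected one, called 55.8% of genes, 27.4% higher and 28.3% lower. Glucocorticoid response genes rose less in the knockout in most members: 10 of 16 were called lower and 2 higher in the difference, with a median of -0.89. FKBP5 was at 548, 557.6 and 535 CPM in treated parental cells and the difference was -1.36 ± 0.11 (edgeR adjusted p = 1.2e-09). TSC22D3 reached 467.9, 474.2 and 480.8 CPM in treated parental cells from higher untreated levels, and its difference of -0.05 ± 0.10 was not called (edgeR adjusted p = 0.73). For NR3C1 the difference was -0.12 ± 0.07 (edgeR adjusted p = 0.23). BCL2L11 was at 61.7, 62.6 and 57.6 CPM in treated parental cells, and the difference was -1.14 ± 0.10 (edgeR adjusted p = 6.5e-09). BMF was at 75.3, 74.1 and 75.9 CPM there, with a difference of -0.90 ± 0.13, and BCL2 at 47.4, 49.4 and 47.2 CPM, with a difference of 0.96 ± 0.06, so both moved less far from their untreated level in the knockout.

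**Figure D4:**
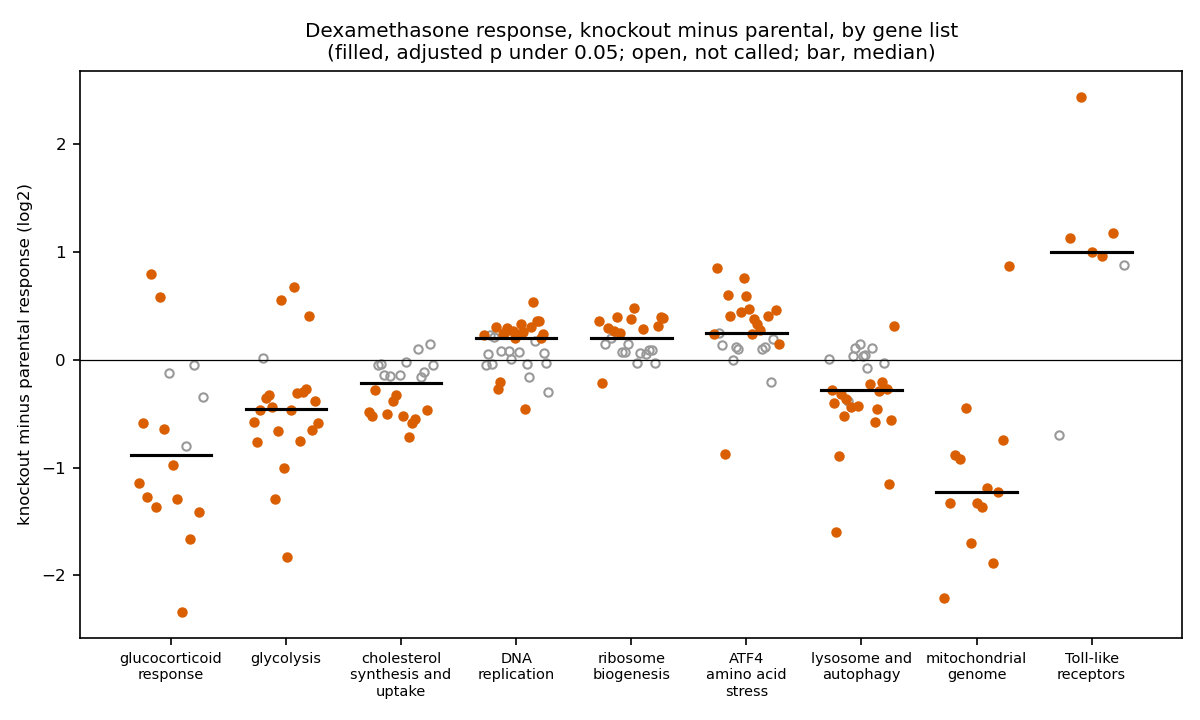
Difference between the dexamethasone responses of knockout and parental cells on the log2 scale for each tested member of 9 gene lists, filled where edgeR's adjusted p is under 0.05 and open otherwise, with bars at the medians. Glucocorticoid response, glycolysis, lysosome and mitochondrial genome members lie mostly below 0, and those of replication and amino acid stress mostly above.

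Other pathways differed in extent and not all in the same direction. Glycolysis genes fell further in the knockout, with 18 of 22 called lower and a median difference of -0.45. LDHA was at 269.9, 313.3 and 270.5 CPM in treated parental cells, and its difference was -0.66 ± 0.10. Cholesterol genes were called lower in 11 of 22 members and higher in none. DNA replication genes fell slightly less, with 16 of 34 called higher and 3 lower at a median of 0.20. MCM4, at 175.6, 176.8 and 176.1 CPM in treated parental cells, did not pass the test of the difference (0.08 ± 0.07, edgeR adjusted p = 0.46). The ATF4 list had 15 of 25 called higher and 1 lower, with ATF5 the lower one at -0.87 ± 0.11. Toll-like receptor genes were called higher in the difference in 5 of 7, although none of them was called higher and 1 was called lower in the set-corrected response, against 5 called lower and 1 higher in the parental one. TLR10 was at 1.86, 2.33 and 2.63 CPM in treated knockout and 0.185, 0.246 and 0.190 in treated parental cells. It fell by 1.77 ± 0.19 in the set-corrected response, the parental response was -4.21, and the difference of 2.44 ± 0.32 is thus that of a smaller fall. The largest positive differences also held FCRLA, an Fc receptor-like protein of B cells, which rose in the knockout to 45.1, 45.9 and 44.7 CPM and stood at 5.11, 5.81 and 5.77 CPM in treated parental cells. Its set-corrected response was 1.07, its parental response -1.62 and the difference 2.69 ± 0.11. The largest negative ones held NEDD9, a scaffold of adhesion signalling, at 20.97, 23.0 and 21.2 CPM in treated knockout and 98.8, 102.4 and 99.5 in treated parental cells, with a difference of -3.29 ± 0.11. GNG11, a G protein subunit, was already at 1.46, 1.77 and 2.89 CPM in untreated knockout cells against 20.1, 21.6 and 20.1 in the first parental set, and its difference was -3.47 ± 0.34.

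Knockout cells given 5 µM prednisolone for 24 h provide values beside these, from libraries of the first set. They share the untreated knockout group with the contrast above, and drug and dose differ, so no comparison was made. TSC22D3 changed by 4.39, BMF by 4.07, BCL2L11 by 0.51, LDHA by -1.17 and MCM4 by -1.40 under prednisolone. JCHAIN was at -1.11, S1PR1 at -1.16 and CD22 at -1.56. Median values were 1.54 for the glucocorticoid response list, -0.80 for glycolysis and 0.21 for large-subunit ribosomal proteins, of which 34 of 45 were called higher. In this prednisolone comparison 48.8% of the genes were called.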

How the data were processed

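Per the labels' protocols, a column kit gave the RNA and standard Illumina methods the libraries. The authors deposited raw counts of reads per gene, as 1 unstranded column and 1 for each strand. The submitters' processing notes name Bowtie2, DESeq2 and hg19, with no role or order. Column 4 was used, since it held 13.9 to 15.3 times the gene total of the other strand's column. The 4 rows that name no gene stayed out of library sizes: they held unmapped (2.84% to 8.50% of a library), multiply mapped (4.98% to 7.55%), ambiguous (4.89% to 7.00%) and no-gene reads. Groups follow the sample titles, because the labels' treatment text assigns the drugs differently. Symbols from the supplied name table matched 40641 of 62446 gene IDs. Counts of genes with near-identical copies are uncertain.

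Counts of the 12 libraries were fitted with edgeR 4.0.16 in R 4.3.3 (filterByExpr, TMM, quasi-likelihood F test, Benjamini-Hochberg over all genes tested). The 21-library fit added parental dexamethasone and both prednisolone groups. Log2 fold changes are given ± standard error, derived from the F statistic, with n = 3 per group. The script was tested on simulated data. Members and gene lists were chosen with earlier results of these data known. Genes named are 7 chosen genes, the 12 largest rises and falls with an average log2 CPM of at least 1 and no overlap of library differences, up to 4 called genes per list, 5 calls each lost and gained on removal, and the 6 largest differences from the parental response each way. One gene under this rule is not reported here. Replicates were not merged, since the spread of each pair exceeded sampling noise (chi-square per degree of freedom 2.17 to 29.3). Promoter sequences came from RefSeq (GRCh38.p14), another build than the files', so no coordinates were taken from the files. The alternatives were DESeq2 1.42.0, edgeR with RLE size factors or with robust moderation, no low-count filter, a minimum of 10 counts in each library, the unstranded column, a replicate block, 1 fit of all Nalm6 libraries, and leaving out each library.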

Additional observations from a re-analysis of the deposited data

Results flagged for a closer look

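The dexamethasone response differed between knockout and parental cells by the edgeR test of the difference itself in 5383 genes. Among genes chosen by name the difference, knockout minus parental on the log2 scale, was -0.82 for TLE1, -1.36 for FKBP5, -1.14 for BCL2L11, 0.90 for LEF1 and 0.47 for MYC. In the set-corrected response TLE1, FKBP5 and BCL2L11 thus rose less, and LEF1 and MYC fell less, than in the parental line. The set-corrected rise of BCL2L11 comes wholly from the parental set difference, since its treated and untreated knockout libraries overlapped.

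The largest positive differences were 2.69 for FCRLA, 2.66 for GPR18, a lipid-sensing receptor of lymphocytes, 2.66 for GZMK, a granzyme, 2.44 for TLR10, 2.36 for the non-coding RNA LINC01483 and 2.33 for GADL1, a decarboxylase. GPR18 was at 9.39, 9.45 and 10.1 CPM in treated and 5.21, 4.92 and 4.91 in untreated knockout cells, and at 2.66, 2.31 and 2.35 in treated parental cells. GZMK was at 16.7, 15.8 and 17.5 CPM in treated and 0.278, 0.642 and 0.739 in untreated knockout cells, and at 8.88, 8.76 and 8.57 in treated parental cells against 1.95, 2.02 and 1.67 in the first parental set. The largest negative differences were -3.47 for GNG11, -3.29 for NEDD9, -3.05 for MIR210HG, -2.84 for CD34, -2.76 for PI16 and -2.58 for TAMALIN, a scaffold protein. CD34 was at 11.4, 12.6 and 10.8 CPM in treated parental cells, where its response was 0.08.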

How the results depend on the processing

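With at least 10 counts required in every library, fewer genes were tested and fewer passed at a log2 change of 1 or more: 803 in place of 1285 for the set-corrected response, 929 in place of 1795 with the set difference kept, 437 in place of 1198 between the parental sets, 519 in place of 905 for knockout minus parental, 1036 in place of 2137 for the parental response and 668 in place of 1484 for knockout prednisolone. In the unstranded column the parental sets gave 1959. Leaving out each library gave 6142 to 7308 set-corrected calls, the lowest without first-set parental replicate 2 and the highest without untreated knockout replicate 3. Replicate numbers were not used as pairs in the main fit. Same-numbered libraries deviated from their group means with correlations of -0.10 to 0.07, so no strong shared deviation was seen. These values cannot tell whether same-numbered libraries were grown together. The replicate block called 6558 genes in place of 6952, of which 6498 were shared. In each of the 20 set-corrected alternatives that tested them, 160 of 171 named genes kept their side of the threshold. Where called, they also kept their direction. In at least 1 alternative EGR3, GABARAPL1, IFI44L, ITGB7, MPO, MS4A1, RPL38, RPL39 and TCF7L2 were no longer called and CCDC88B and GP5 were called. None reversed. Outside the ribosomal protein lists, leaving out a library moved a list's calls in 1 direction by over 1.5 times only for counts of 2 or fewer, and then by 1 gene. Set and treatment cannot be told apart in the knockout, which has 1 untreated group in 1 set, and depth limits genes under about 1 CPM.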

Other observations

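TNFRSF17, the plasma cell receptor BCMA, was at 1.30, 1.502 and 1.54 CPM in treated and 0.139, 0.214 and 0.193 in untreated knockout cells. It passed the filter on low counts on its treated libraries, so its direction was given by the filter. PRDM1, another plasma cell gene, differed from its parental response by -1.64 ± 0.21. ARRDC3, an arrestin of the TXNIP family, fell by 1.13 ± 0.11 where TXNIP rose. NLRP3, an inflammasome sensor, fell by 2.82 ± 0.27, CCM2L, a vascular scaffold protein, fell by 2.34 ± 0.13 and TBX2, a repressor of the T-box family, fell by 2.16 ± 0.17. APLN, a peptide hormone known to be raised by low oxygen, fell by 3.17 ± 0.20. CD33, a myeloid surface protein, was at 6.98, 9.05 and 8.88 CPM in treated and 2.81, 2.75 and 2.63 in untreated knockout cells, and at 7.37, 8.34 and 7.89 and 5.41, 4.55 and 4.51 in the parental sets, and rose by 0.86 ± 0.17. LCK rose by 0.50 ± 0.07, at 43.5, 44.4 and 44.3 CPM treated and 27.1, 27.2 and 27.7 untreated. Of 11 T-cell markers matched, summed to 43.8 to 44.8 CPM in the treated and 27.6 to 27.9 in the untreated knockout, CD3D, CD3E and CD3G had no read in either knockout group. CD247, another chain of the CD3 complex, averaged 0.34 CPM in the treated and 0.37 in the untreated knockout.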
